A study of Mus musculus with 8 samples.

Results

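The small leucine-rich proteoglycans are secreted matrix proteins built around a horseshoe of leucine-rich repeats, most of which carry chondroitin, dermatan or keratan sulfate chains. They bind collagen fibrils, set fibril width and spacing, and hold or present growth factors, and fibroblasts are among their main sources. The 8 genes described here are Lum, Dcn, Bgn, Fmod, Ogn, Omd, Aspn and Prelp, chosen by gene symbol in the platform annotation. Each had 1 probe set, so the group is 8 of 35556 probe sets and 8 of the 19938 genes tested. The family was picked with results of these samples known: Lum and Dcn were already seen to be higher with tamoxifen. For these 8 genes the values of tamoxifen against no tamoxifen are therefore a description, with no p-value.

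RNA was taken from primary mouse embryonic fibroblasts, cells brought into culture from embryos, and hybridised to Affymetrix arrays. The 4 groups held 2 samples each: line B (MEF16) with tamoxifen, when the cells expressed PKM1, line B without tamoxifen, when they expressed PKM2, line A (MEF10) with tamoxifen, expressing PKM1, and line A without, expressing PKM2. PKM1 and PKM2 are isoforms of pyruvate kinase, the enzyme of the last step of glycolysis, and the series asks how cells with one or the other differ. The labels name no allele, recombinase or tamoxifen dose, all tamoxifen samples are PKM1 samples, and there are no tamoxifen-treated cells that kept PKM2, so the drug and the isoform cannot be told apart. A difference between lines here is 1 line against 1 other line. Values are RMA log2 expression values, and a difference of 1 is a doubling in signal.

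The description and extraction labels mention mammary tumors, although the titles, source names and design name embryonic fibroblasts. All 12 fibroblast markers measured averaged above the median of all genes, and 8 of 10 epithelial and mammary markers below it. The samples of one group differed by a root mean square of 0.266 (line B with tamoxifen), 0.247 (line B without), 0.131 (line A with) and 0.169 (line A without) over all genes. The line B samples were thus further apart, and after these values were seen the results were also computed without line B PKM2 replicate 2 and line B PKM1 replicate 1 together. The spread within a group does not say which of its samples to leave out. Separate cultures are not stated for the samples of a group, so the p-values rest on a spread that may be technical. In bulk RNA, fewer cells of a type and less RNA per cell cannot be told apart.

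The genes lie in 3 clusters and 1 lone site in the mouse genome (RefSeq gene order). Dcn and Lum are neighbours on chromosome 10, followed by their relatives Kera and Epyc. Aspn, Omd and Ogn follow each other on chromosome 13, after the relative Ecm2. Prelp and Fmod are neighbours on chromosome 1, next to Optc. Bgn is on the X chromosome with no family gene beside it, and the relative Nyx lies elsewhere on that chromosome. RefSeq promoter windows, from 250 bases before to 50 after the gene start (GRCm38.p6), were at hand for 6 of the 8 genes. Lum and Dcn had no window at hand, so their promoters were not searched. The windows of the chromosome 13 neighbours are shown because Omd and Ogn had similar profiles over the 8 samples while Aspn, beside them, did not. They lie on the plus strand at chr13:49582212-49582511 (Omd), chr13:49607765-49608064 (Ogn) and chr13:49544193-49544492 (Aspn), and capitals mark every match to TATAAA on either strand.
Omd: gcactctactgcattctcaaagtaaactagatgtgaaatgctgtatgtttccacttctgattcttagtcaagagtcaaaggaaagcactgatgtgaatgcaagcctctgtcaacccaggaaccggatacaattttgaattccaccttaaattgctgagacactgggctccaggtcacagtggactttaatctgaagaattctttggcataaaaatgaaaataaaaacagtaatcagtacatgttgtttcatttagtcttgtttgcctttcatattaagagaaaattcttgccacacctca
Ogn: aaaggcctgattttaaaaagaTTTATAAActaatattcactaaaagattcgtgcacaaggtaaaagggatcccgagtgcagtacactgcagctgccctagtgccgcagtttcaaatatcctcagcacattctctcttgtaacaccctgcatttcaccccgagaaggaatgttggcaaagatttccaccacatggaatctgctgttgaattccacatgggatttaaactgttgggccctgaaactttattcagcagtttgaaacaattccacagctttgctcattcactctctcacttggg
Aspn: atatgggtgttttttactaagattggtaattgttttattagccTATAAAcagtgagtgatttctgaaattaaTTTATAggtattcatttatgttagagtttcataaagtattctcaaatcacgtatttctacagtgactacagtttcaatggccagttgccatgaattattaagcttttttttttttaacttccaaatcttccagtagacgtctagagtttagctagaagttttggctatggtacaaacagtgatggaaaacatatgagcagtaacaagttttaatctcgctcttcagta
The Ogn and Aspn windows each held TATAAA on both strands, with an overlap of both matches in Ogn, and the Omd window did not hold it. Of 32851 mouse promoter windows of the same length, 13.6% held it. The AP-1 motif TGANTCA, found in 7.8% of windows, was in 0 of the 6 windows, and TATAAA was in those of Ogn and Aspn alone among the 6. These matches describe letters in a window and are not binding sites.

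With tamoxifen, Lum and Dcn had higher values in both lines and Omd had lower values in both lines, with no overlap between the treatments of a line. Lum and Dcn are the genes that drew attention to the family, so the number of members past the threshold for tamoxifen follows from that choice and is no test of the family. It was 2 of 8 over both lines in limma (adjusted p under 0.05), both higher, where 1.32% of all genes were called, 0.808% higher and 0.512% lower. In line A it was the same 2, where 0.502% of all genes were called and 0.401% were called higher, and in line B it was 0, where 0.0201% were called, all of them higher. Without any 1 line A sample it was 1 over both lines and 0 in line A. The treatments did not overlap for 5 of 8 genes in line A, as for 47.6% of all genes, and for 3 of 8 in line B, as for 24.8%. The median log2 difference of the 8 genes over both lines was 0.08, and that of all genes was -0.01.

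Lum encodes lumican, a keratan sulfate proteoglycan that keeps collagen fibrils thin and evenly spaced in cornea and skin. In line B its log2 values were 7.83 and 7.93 with tamoxifen, against 7.14 and 6.47 without. In line A they were 9.50 and 9.93 with tamoxifen, against 7.95 and 8.31 without. Within each line the treatments did not overlap, but line B with tamoxifen ended just below line A without, so Lum overlapped between treatments once the lines were pooled. The log2 difference was 1.07 in line B (SE 0.23, 2.11-fold) and 1.59 in line A (SE 0.23, 3.00-fold), and 1.33 over both lines (SE 0.17, 2.52-fold). Without line B PKM2 replicate 2, the lowest sample, the difference in line B was 0.74. Both line B samples without tamoxifen had Lum below their medians of all genes, 7.32 and 7.39, and differences of dim genes come out small.

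Dcn encodes decorin, which carries a chondroitin or dermatan sulfate chain, coats collagen fibrils and binds TGF-beta. Line B had log2 values of 11.32 and 11.35 with tamoxifen, against 10.99 and 10.75 without. Line A had 11.22 and 11.38 with tamoxifen, against 9.95 and 10.05 without. With tamoxifen the lines overlapped, and without it line A stood lowest, so the 4 tamoxifen samples lay above the 4 others. Dcn was the 1 member without overlap over both lines, where 5.31% of all genes had none. The log2 difference was 0.46 in line B (SE 0.11, 1.38-fold) and 1.30 in line A (SE 0.11, 2.47-fold). The effect in line B minus that in line A was -0.84 for Dcn (SE 0.16) and -0.51 for Lum (SE 0.32). These differences between the lines come from the values the genes were chosen on and have no test here.

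Biglycan and asporin are the nearest relatives of decorin. Bgn, whose product binds collagen and can act on Toll-like receptors once released, had log2 values of 12.90 and 12.55 in line B with tamoxifen, against 12.51 and 12.80 without. In line A it had 12.64 and 12.63 with tamoxifen, against 12.92 and 12.69 without. The groups overlapped in line B, and the difference over both lines was -0.05 (SE 0.11). Aspn, which encodes asporin, a collagen and TGF-beta binding protein that lacks the sulfated chain, had 11.69 and 11.76 with tamoxifen in line B, against 11.72 and 11.30 without. In line A, Aspn had 11.61 and 11.81, against 11.64 and 11.66, and its difference over both lines was 0.14 (SE 0.10).

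Omd encodes osteomodulin, a keratan sulfate proteoglycan known from mineralised matrix. Its log2 values in line B were 6.95 and 7.56 with tamoxifen, against 8.04 and 7.65 without. In line A they were 7.71 and 8.06 with tamoxifen, against 8.10 and 8.51 without. The treatments did not overlap within either line, opposite in direction to Lum and Dcn. Of all genes, 47.6% had no overlap in line A and 24.8% in line B. Omd was not past the limma threshold for tamoxifen over both lines or in either line. The log2 difference was -0.59 in line B (SE 0.23), -0.42 in line A (SE 0.23) and -0.51 over both lines (SE 0.15), a fold of 0.703. Ogn, which encodes osteoglycin, also called mimecan, a small proteoglycan of connective tissue, had 11.24 and 11.59 with tamoxifen in line B, against 11.68 and 11.26 without. In line A it had 11.77 and 11.93, against 12.15 and 12.14. The treatments overlapped for Ogn in line B only, with differences of -0.06 in line B (SE 0.16) and -0.29 in line A (SE 0.16).

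Fmod encodes fibromodulin, which binds collagen at the same region as lumican and is abundant in tendon. It had log2 values of 8.45 and 7.68 with tamoxifen in line B, against 7.98 and 8.27 without, and 8.95 and 8.85 in line A, against 8.89 and 8.74. Its difference over both lines was 0.01 (SE 0.15). Prelp, whose product links basement membranes to collagen through a heparin-binding end, had 10.37 and 9.63 with tamoxifen in line B, against 9.25 and 9.82 without. In line A, Prelp had 10.26 and 10.16, against 10.27 and 9.89. Both genes overlapped between treatments in both lines, and Prelp differed by 0.30 over both lines (SE 0.18).

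**Figure D1:**
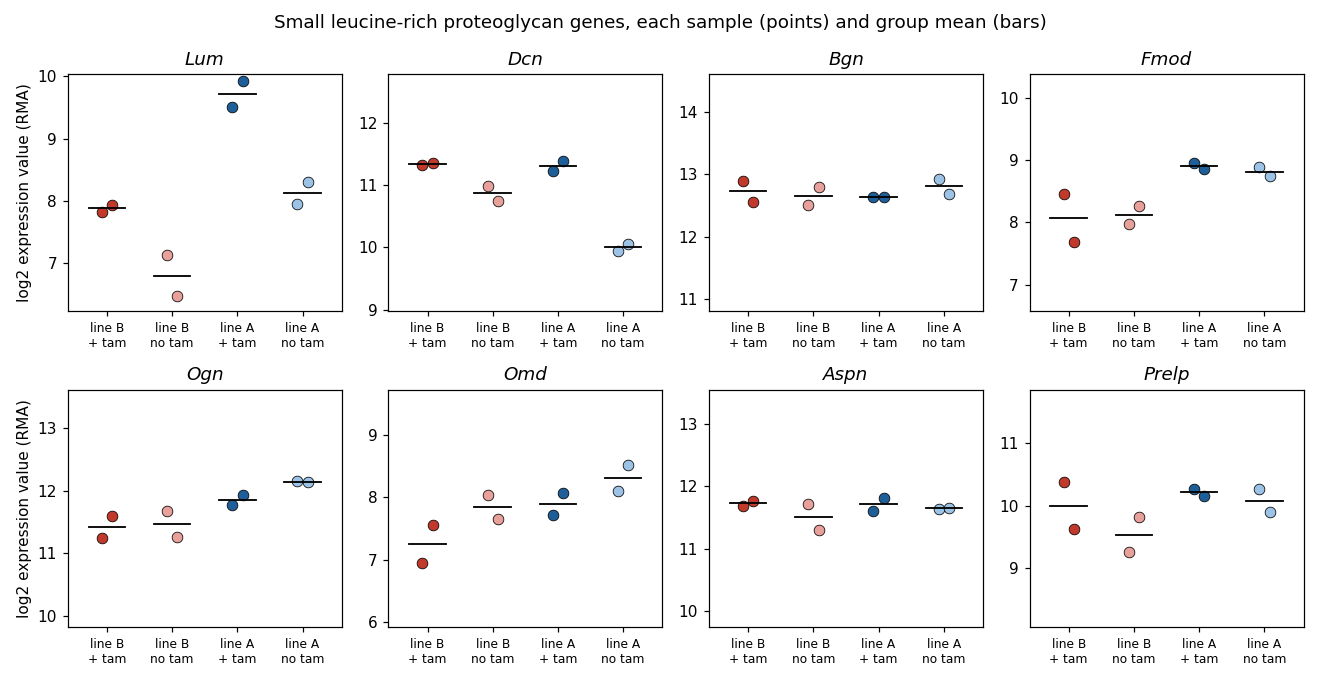
Log2 expression values (RMA, vertical axis, the same span in every panel) of the 8 genes in each of the 8 samples, by line and tamoxifen; points are samples and bars are group means of 2. Lum and Dcn lie higher with tamoxifen in both lines, Omd lower, and Lum, Fmod and Ogn lie lower in line B than in line A.

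**Figure D2:**
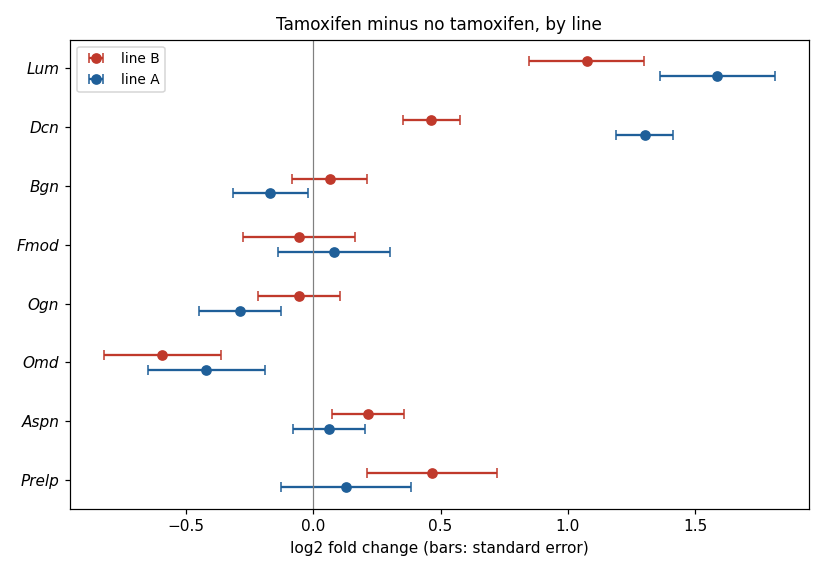
Log2 fold change of tamoxifen minus no tamoxifen in line B and line A for each gene, with limma standard errors. Lum stands at 1.07 in line B and 1.59 in line A and Dcn at 0.46 and 1.30, while Omd is below 0 in both lines.

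Lum, Fmod and Ogn were lower in line B than in line A over both treatments, and 0 members were higher. That is 3 of 8 genes called by limma, where 1.47% of all genes were called, 0.717% lower and 0.752% higher. All but Dcn had an estimate below 0, with a median of -0.46 for the 8 genes and 0.02 for all genes. In Lum, Fmod and Ogn the 4 line B samples lay below the 4 line A samples without overlap, and 4.89% of all genes had no overlap in either direction. Within 1 treatment the lines did not overlap for 6 of 8 genes without tamoxifen, as for 28.8% of all genes, and for 4 of 8 with it, as for 37.6%.

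Lum averaged 7.34 ± 0.68 in line B and 8.92 ± 0.94 in line A (SD, n = 4 each, both treatments). The log2 difference was -1.58 (SE 0.17, limma adjusted p = 0.00118), a fold of 0.335, and Lum was lower in 4 of 4 line B samples. The lines are balanced over tamoxifen, but this p-value uses the same error as the tamoxifen difference on which Lum was chosen. It is thus not fully free of that choice. Leaving out any 1 sample kept the log2 difference of Lum between -1.764 and -1.441. With no term for tamoxifen in the fit the limma adjusted p of Lum was 0.219. With tamoxifen the log2 difference of Lum was -1.83 (SE 0.23), and without it -1.32 (SE 0.23). These use the same line A and line B values as the tamoxifen differences on which Lum was chosen, so they are given with no test. The order of the Lum group means was line B without, line B with, line A without and line A with tamoxifen. The middle groups lay at 7.83 and 7.93 (line B with tamoxifen) and 7.95 and 8.31 (line A without), within the spread of the samples of a group.

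Fmod averaged 8.09 ± 0.34 in line B and 8.86 ± 0.09 in line A (SD, n = 4 each). The log2 difference was -0.77 (SE 0.15, limma adjusted p = 0.0294), a fold of 0.588, with similar estimates with tamoxifen (-0.83, SE 0.22) and without (-0.70, SE 0.22). Ogn averaged 11.44 ± 0.23 in line B and 11.997 ± 0.178 in line A, a difference of -0.55 (SE 0.11, limma adjusted p = 0.0413). Both calls lay close to the threshold. The Fmod call was lost without any 1 line A sample or line B PKM2 replicate 1 (limma adjusted p from 0.0746 to 0.149). The Ogn call was lost without any 1 line A sample, line B PKM2 replicate 2 or line B PKM1 replicate 1 (adjusted p from 0.0788 to 0.162).

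Omd and Prelp had estimates below 0 that did not pass in the fit reported here. Omd averaged 7.55 ± 0.45 in line B and 8.10 ± 0.33 in line A (SD, n = 4 each), a log2 difference of -0.54 (95% interval -0.89 to -0.20, limma adjusted p = 0.179). With array weights Omd passed, at -0.70 (limma adjusted p = 0.0262). Prelp averaged 9.76 ± 0.47 in line B and 10.15 ± 0.18 in line A, a difference of -0.38 (95% interval -0.77 to 0.01, adjusted p = 0.626). Without line B PKM2 replicate 2 and line B PKM1 replicate 1, Prelp differed by -0.71, Fmod by -1.03, Lum by -1.38, Ogn by -0.36 and Omd by -0.29. The samples left out had the higher Prelp and Fmod values of their groups, and the lower Lum, Ogn and Omd values. The direction of these shifts therefore followed from the choice of samples. Leaving out the other sample of each of these groups instead was not run. Bgn and Aspn were within 0.07 of equality between the lines, with 95% intervals of -0.27 to 0.20 for Bgn and -0.28 to 0.15 for Aspn.

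Dcn was the 1 member with an estimate above 0 over both treatments, 0.45 (95% interval 0.12 to 0.78, limma adjusted p = 0.314). Without tamoxifen it averaged 10.87 in line B and 10.00 in line A (n = 2 each), a log2 difference of 0.87 (SE 0.11, 1.83-fold). The low line A values behind it also make the tamoxifen difference on which Dcn was chosen, so it is given with no test. Dcn was the 1 member past the limma threshold without tamoxifen, which that choice helped to fix, where 0.326% of all genes were called, 0.186% higher and 0.14% lower. With tamoxifen Dcn averaged 11.33 in line B and 11.30 in line A, a difference of 0.03 (SE 0.11, 95% interval -0.23 to 0.28), and Lum was the 1 member past the threshold, with the same limit, where 0.532% of all genes were called, 0.351% lower and 0.181% higher. Without any 1 line A sample or line B PKM2 replicate 1, Dcn was not past the threshold without tamoxifen. Dcn and Lum, neighbours on chromosome 10, thus had line differences of opposite sign without tamoxifen.

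**Figure D3:**
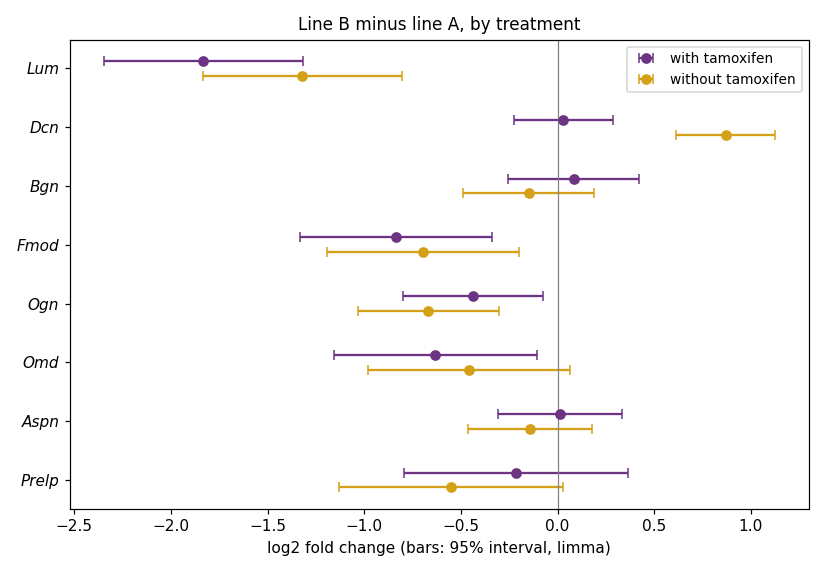
Log2 fold change of line B minus line A with and without tamoxifen for each gene, with 95% intervals from limma before adjustment over genes. The intervals of Lum and Dcn rest on the values these genes were chosen on and are no test. Lum is lowest under both treatments, at -1.83 and -1.32, and Dcn is at 0.03 with and 0.87 without tamoxifen.

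Some cell type markers differed between the lines, where 1.47% of all genes were called. Of 10 macrophage markers 4 were higher in line B and 0 lower, Lyz2, a lysozyme gene, by 1.83 (SE 0.16, limma adjusted p = 0.000327), Adgre1 by 0.59 (SE 0.07), Mrc1 by 0.47 (SE 0.08) and C1qb by 0.34 (SE 0.07). The mean log2 value of the list was 6.95 to 7.10 in line B and 6.45 to 6.58 in line A, and 8 of its 10 genes averaged below the median of all genes. Of 6 tendon cell markers 2 were lower in line B and 0 higher, the matrix gene Thbs4 (-1.04, SE 0.09) and the transcription factor gene Scx (-0.29, SE 0.06). Their list averaged 7.91 to 8.06 in line B and 8.21 to 8.36 in line A. Of 10 cartilage markers 2 were lower, the matrix genes Comp (-0.40, SE 0.07) and Hapln1 (-0.58, SE 0.11). Of 7 endothelial markers Emcn was higher in line B (1.05, SE 0.11) and Erg lower (-0.48, SE 0.07), of 12 fibroblast markers Thy1 was higher (0.57, SE 0.07), and of 6 fat cell markers Fabp4 was lower (-0.53, SE 0.11). Of the epithelial and mammary, muscle and bone lists 0 genes were called for the line. The part of these markers in the line difference of the proteoglycans was not tested. With tamoxifen over both lines 1 marker of all 9 lists was called, Erg, which was lower (-0.44, SE 0.07, limma adjusted p = 0.0205). In line A, the fibroblast marker Fap was higher with tamoxifen (1.01, SE 0.13, limma adjusted p = 0.024), at 8.72 and 8.79 with tamoxifen, against 7.64 and 7.84 without. The share of all genes called for tamoxifen was 1.32% over both lines and 0.502% in line A. The part of Erg and Fap in the tamoxifen differences of Lum and Dcn was not tested.

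Most other family relatives were dim. Of 8 measured, Kera, Epyc, Optc, Chad, Podnl1 and Ecm2 lay below the median of all genes in 8 of 8 samples, while Nyx and Podn lay above it in 8 of 8, and 0 of 8 passed for tamoxifen or line. Among the members, Lum lay above that median in 6 of 8 samples, Omd in 7 of 8 and the others in 8 of 8. Kera, beside Lum, had log2 values of 5.62 and 5.68 with tamoxifen in line B, against 5.65 and 5.50 without, and 5.98 and 6.08 in line A, against 5.71 and 5.53. Its difference over both lines was 0.24 (SE 0.09, limma adjusted p = 0.333). Ecm2, beside Aspn, differed by -0.27 between line B and line A (SE 0.09, adjusted p = 0.346). No detection calls were at hand to say whether these dim genes stood above background.

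Genes of the surrounding pathway are given by count, on lists written with results of these data known, beside 1.32% of all genes called for tamoxifen and 1.47% for the line. Of 22 enzymes of linker and chondroitin or dermatan sulfate synthesis, 0 were called for tamoxifen and 1 was lower in line B, the chondroitin sulfotransferase gene Chst7 (-0.35, SE 0.07). Of 10 keratan sulfate genes, 0 were called for tamoxifen and 1 was higher in line B, the sulfotransferase gene Chst2 (0.39, SE 0.07). Of 16 measured fibrillar collagen and fibril assembly genes 0 passed for either comparison. With tamoxifen over both lines 15 of them had an estimate below 0, with a median of -0.10 beside -0.01 for all genes. In line A 15 were below 0, with a median of -0.17, and in line B 11, with a median of -0.056. These genes share the same samples and are not separate observations. Over both lines the lowest p-values of the list belonged to Col11a1 (-0.29, SE 0.07, limma adjusted p = 0.0756) and Col5a2 (-0.23, SE 0.06, adjusted p = 0.161), which encode chains that help start collagen fibrils. Of 10 proteases that cut small proteoglycans, 2 were higher with tamoxifen, Mmp13 by 1.45 (SE 0.15, limma adjusted p = 0.00175) and Mmp3 by 1.21 (SE 0.19, adjusted p = 0.0123). Among tamoxifen samples both were lower in line B than in line A, Mmp13 with a log2 difference of -0.85 (SE 0.11) and Mmp3 with -1.05 (SE 0.16). These differences use the same tamoxifen values for which both genes are named, so they are given with no test. Of 16 measured receptors and growth factors bound by these proteoglycans and 10 TGF-beta induced genes, 0 passed for tamoxifen or for line.

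The members also split within groups. In each of the 4 groups, the sample with more Col1a1, the main collagen I chain gene, also had more Bgn, Fmod and Prelp, and less Lum, Dcn, Omd and Aspn. Ogn was opposite to Col1a1 in 3 groups and followed it by 0.01 in line A without tamoxifen (12.15 and 12.14). Some differences counted for other members were about as small. Replicate 1 minus replicate 2 was 0.01 for Bgn in line A with tamoxifen and -0.02 for Aspn in line A without. It was -0.03 for Dcn in line B with tamoxifen. The sign of such small differences carries little weight. Over all genes 14.6% followed Col1a1 in 4 of 4 groups and 11.9% were opposite in 4 of 4. Line B showed the widest gaps. With tamoxifen its samples had Col1a1 at 10.2 and 9.0, Prelp at 10.37 and 9.63 and Omd at 6.95 and 7.56, and without tamoxifen Col1a1 at 9.26 and 10.3, Prelp at 9.25 and 9.82 and Omd at 8.04 and 7.65. This pattern was noticed after the values were seen, and its cause was not tested.

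**Figure D4:**
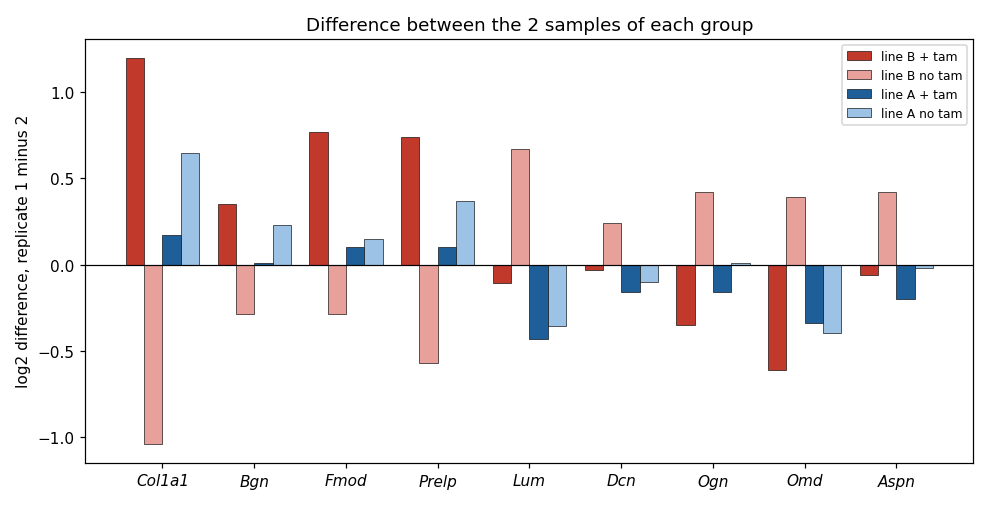
Log2 difference between the 2 samples of each group (replicate 1 minus replicate 2) for Col1a1 and the 8 genes; each bar is 1 group. Bars of Bgn, Fmod and Prelp point the same way as those of Col1a1 in 4 of 4 groups, and those of Lum, Dcn, Omd and Aspn the opposite way. Some bars are close to 0, such as Bgn in line A with tamoxifen (0.01).

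Profiles over the 8 samples set the neighbours side by side. Among members the highest Pearson correlation was 0.85, between Omd and Ogn, followed by 0.77 between Fmod and Prelp and 0.70 between Bgn and Prelp, while Lum and Dcn correlated at 0.28. These are descriptions over 8 samples that share lines and treatments. Among all named genes, the profiles most like Lum were those of Pdk4 (0.987), Sema3c (0.983), Arhgap6, Arhgef6 and Esm1. Those most like Dcn were Zim1 (0.988), Dpt (0.987), which encodes the decorin-binding matrix protein dermatopontin, Tmem45a2, Maco1 and Pde7b. Fmod was closest to Slc24a3 (0.991), Omd to Rab8b (0.988), Ogn to Cdx4 (0.985), Bgn to Slc48a1 (0.984), Aspn to Hk1 (0.991) and Prelp to Timp2 (0.962).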

How the data were processed

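The authors deposited log2 values, 1 column per sample, made by RMA in Affymetrix Expression Console per the labels, with no version named. RMA subtracts background, gives all arrays the same distribution and combines probes into 1 value a probe set, so differences of dim genes come out small. Values lay between 2.61 and 14.12. GEO's platform annotation gave 1 symbol to 21789 of 35556 probe sets, several to 1621 and none here to 12146; the brightest probe set represented a gene, leaving 19938 genes. Titles set the groups, and replicate numbers follow sample order and pair nothing. Tests used limma 3.58.1 in R 4.3.3 (lmFit, eBayes), p-values adjusted by Benjamini-Hochberg across the 19938 genes, threshold 0.05: line + tamoxifen for effects over both lines or treatments, and 4 group means for the rest, 7 comparisons in all. The fits were tested on simulated data. The number of arrays limits precision. Members, marker lists and pathway lists were chosen with earlier results of these data known. Genes named are all members, all relatives discussed, list members by smallest p and the profiles most like each member (unnamed transcripts left out); Col1a1 was named after its values were seen. Alternatives were another array scaling (shift or quantile), a filter that drops the dimmest 30% of genes, array weights, a trended robust variance, other uses of several probe sets, fits of 4 samples alone, no term for line or tamoxifen, and leaving out samples. Leaving out 2 line B samples together was chosen after seeing the data.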

Additional observations from a re-analysis of the deposited data

How the results depend on the processing

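Directions of the called differences (Lum and Dcn for tamoxifen, Lum, Fmod and Ogn for the line over both treatments) held under all alternatives run, but with 2 samples a group the calls did not. Leaving out each sample in turn gave 1 to 2 members called for tamoxifen over both lines, 0 to 2 in line A, 0 in line B and 0 for the difference between the lines, and for line B against line A 1 to 3 over both treatments, 0 to 1 without and 0 to 1 with tamoxifen. A group left with 1 sample is assumed to vary like the others. The counts were 0 for tamoxifen over both lines with no term for the line, 1 for the line with no term for tamoxifen, and 0 for the line without tamoxifen in those samples alone. The first 2 put the other factor's difference into the error by construction, and the cause of the last was not tested. Line B PKM2 replicate 2 and line B PKM1 replicate 1 were also left out together, and the direction of the shifts between the lines followed from that choice. Signs turned for members near equality between the lines. Bgn over both treatments was 0.006 after quantile normalization and 0.051 with array weights, and -0.125 to 0.049 leaving out 1 sample. Without those 2 line B samples Bgn was -0.091 with tamoxifen, and Aspn 0.058 over both treatments and 0.071 without. Aspn with tamoxifen was -0.01 after a shift of medians. Leaving out 1 sample, the ranges were -0.091 to 0.258 for Bgn with tamoxifen, -0.133 to 0.036 for Aspn over both treatments, -0.353 to 0.071 for Aspn without tamoxifen, -0.087 to 0.113 for Aspn with tamoxifen, -0.053 to 0.112 for Dcn with tamoxifen and -0.581 to 0.154 for Prelp with tamoxifen. No paired analysis was possible because the labels give no replicate numbers. Of 536 values for tamoxifen, which include the difference between the lines, 507 moved by less than 1 SD. Of 408 for the line, 362 kept direction and side of the threshold. Much of this was fixed in advance. Each member had 1 probe set, and several alternatives change the error, the genes tested or samples outside the comparison, which leaves the log2 difference as it was. These counts are therefore no measure of stability. Depth has no counterpart here; dim genes such as Kera limit what can be seen.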
